A study of Mus musculus with 4 samples.

Results

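Zim1, Grb10, Igf2r, Asb4, Phlda2, Ppp1r9a and Cdkn1c are imprinted genes known for expression from the maternally inherited allele, some of them in certain tissues alone, and they were followed in cultured mouse rib chondrocytes. They were found by their symbols in the gene tables of 4 RNA-seq libraries. All 7 were listed in every library, among 17575 genes listed in any library and 15243 listed in all 4. The KO libraries (n = 2) came from mice that carried Col2Cre(Tg) together with Kdm6a(fl/fl) and also Kdm6b(fl/fl). The WT libraries (n = 2) came from wild type mice, and both groups were 10 days old and of strain C57/Bl6. Col2-driven Cre acts in cartilage cells, so other cells in the culture could keep intact alleles. Rib cartilage was digested overnight with collagenase and the released cells were plated before RNA extraction. Whether the WT mice carried Cre or floxed alleles, whether animals were pooled and which sex they were are not stated. The series text names triplicates, of which 2 KO and 2 WT libraries were analysed here. No label ties each library to an animal of its own, and the spread behind the p-values may therefore be technical.

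At an imprinted gene a methylation mark set in the egg or the sperm leaves a single parental copy active. Maternally expressed genes as a group are known for restraining fetal and placental growth, and paternally expressed genes for promoting it. Kdm6a and Kdm6b remove the methyl groups that Polycomb repressive complex 2 places on histone H3, a mark that is also found on the silent allele of several imprinted clusters. The deposited values sum the reads of both alleles, so they give the level of each gene and not the parental origin of its transcripts.

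Of the 7 genes, Zim1 rose in KO chondrocytes, to 1.93 times its WT level, and no other passed the test over all genes. Grb10, Igf2r, Asb4 and Ppp1r9a also lay higher in both KO libraries than in both WT libraries, by 1.25 to 1.63 times, without passing. Phlda2 lay lower in both KO libraries than in both WT libraries and did not pass. Cdkn1c had overlapping values. The call at an edgeR adjusted p under 0.05 was thus given to 1 of 7 genes in the upward and 0 of 7 in the downward direction, where 3.62% of the 13773 tested genes were called higher and 5.63% lower (9.25% in all). At an unadjusted p under 0.05 stood 5 of the 7, where 29.2% of tested genes did. The 7 genes were chosen with earlier results of these data known, so these shares are not a test of the group. DESeq2, run on the same counts, called 4 of the 7 higher, namely Zim1, Grb10, Igf2r and Asb4, where 5.26% of the genes with a DESeq2 adjusted p were called higher and 7.8% lower. The authors' deposited table, also made with DESeq2, lists adjusted p-values of 0.00352 for Zim1, 0.0249 for Grb10, 0.0297 for Igf2r and 0.0483 for Asb4, and of 0.453 for Phlda2, 0.596 for Ppp1r9a and 0.995 for Cdkn1c. Those values come from the same series and the same method, and are not independent of the DESeq2 calls given here.

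The promoters of the 5 genes with the smallest p-values of the 7 are shown here, and they lie in different kinds of sequence. Sequences are those of RefSeq for build GRCm38.p6, from 250 bases before to 50 bases after a transcription start, and capitals mark CG dinucleotides, the sites of DNA methylation.
Zim1, chr7:6696383-6696682, minus strand: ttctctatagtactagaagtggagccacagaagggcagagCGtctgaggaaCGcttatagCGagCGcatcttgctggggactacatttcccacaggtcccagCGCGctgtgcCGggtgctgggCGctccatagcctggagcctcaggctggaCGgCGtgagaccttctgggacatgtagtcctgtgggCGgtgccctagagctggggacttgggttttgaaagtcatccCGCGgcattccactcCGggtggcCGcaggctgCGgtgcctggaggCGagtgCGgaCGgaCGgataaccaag
Grb10, upstream start, chr11:12037371-12037670, minus strand: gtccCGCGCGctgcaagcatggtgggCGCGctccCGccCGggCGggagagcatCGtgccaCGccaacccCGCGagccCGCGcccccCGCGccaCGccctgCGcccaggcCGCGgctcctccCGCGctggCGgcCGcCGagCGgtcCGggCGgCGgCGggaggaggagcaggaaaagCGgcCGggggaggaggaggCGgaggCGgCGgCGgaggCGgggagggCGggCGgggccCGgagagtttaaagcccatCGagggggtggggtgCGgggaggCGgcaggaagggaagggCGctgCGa
Igf2r, chr17:12769657-12769956, minus strand: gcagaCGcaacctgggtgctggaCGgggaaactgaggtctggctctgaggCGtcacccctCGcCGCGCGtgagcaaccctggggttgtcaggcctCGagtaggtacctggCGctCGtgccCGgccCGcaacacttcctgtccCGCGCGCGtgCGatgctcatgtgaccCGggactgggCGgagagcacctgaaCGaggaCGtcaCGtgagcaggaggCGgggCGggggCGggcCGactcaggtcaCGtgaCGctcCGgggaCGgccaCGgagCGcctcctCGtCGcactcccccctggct
Asb4, upstream start, chr6:5383136-5383435, plus strand: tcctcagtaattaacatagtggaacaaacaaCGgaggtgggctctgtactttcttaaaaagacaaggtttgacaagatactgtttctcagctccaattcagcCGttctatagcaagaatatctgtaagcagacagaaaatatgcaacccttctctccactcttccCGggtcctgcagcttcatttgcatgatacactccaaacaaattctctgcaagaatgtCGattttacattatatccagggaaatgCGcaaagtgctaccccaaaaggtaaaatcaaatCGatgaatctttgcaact
Phlda2, chr7:143502475-143502774, minus strand: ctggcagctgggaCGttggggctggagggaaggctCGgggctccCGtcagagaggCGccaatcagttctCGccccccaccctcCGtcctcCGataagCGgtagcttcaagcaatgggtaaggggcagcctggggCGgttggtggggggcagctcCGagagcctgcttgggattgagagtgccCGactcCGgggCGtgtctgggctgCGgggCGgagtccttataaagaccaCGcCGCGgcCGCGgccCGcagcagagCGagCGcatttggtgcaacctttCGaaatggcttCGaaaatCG
6 of the 7 genes had a promoter in that table. The Grb10 window held 45 CG dinucleotides, more than 98.1% of the 32851 windows in the table, whose median was 7. Igf2r held 34, Phlda2 26 and Zim1 20, whereas Asb4 held 6. The printed genes with higher values in KO included both CG-rich and CG-poor starts, and a link of CG content to the fold changes was not tested. TGCCGC, the motif bound by the imprint-maintaining protein ZFP57, was searched on both strands and stood 1 time each in the Zim1 and Grb10 windows printed here, and in 11.6% of all windows. This motif and the GC box contain a CG. The GC box GGGCGG stood in every printed window but that of Asb4, and in 35.7% of all windows. The TATA box TATAAA stood in the Phlda2 window and in 13.6% of all windows. Ppp1r9a had 48 CG dinucleotides at one annotated start and 10 at the other, and the downstream starts of Grb10 and Asb4 held 9 and 8.

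Library totals ran from 32230980 to 32332044 estimated counts in KO and from 31178248 to 31616619 in WT. The targeted genes were lower in the libraries labelled KO. Kdm6b measured 51.4 and 46.2 CPM in KO libraries, against 131 and 118 CPM in WT libraries (log2 fold change -1.35 with SE 0.091, edgeR adjusted p = 0.00174). CPM here is the count relative to a library's scaled total (TMM scaling). Kdm6a measured 28.6 and 31.4 CPM in KO libraries, against 52.6 and 56.9 CPM in WT libraries (log2 fold change -0.87 with SE 0.087, edgeR adjusted p = 0.00489). Of genes on the Y chromosome, Ddx3y measured at most 0.158 CPM and Uty at most 0.0988 CPM in any library. No sex was assigned from these values. Chondrocyte markers were abundant, with sums over 8 markers of 51110 and 52970 CPM in KO and 37410 and 38970 CPM in WT. The markers moved both ways, with 3 of the 8 called higher and 1 lower in edgeR. Their log2 fold changes ran from -1.84 to 1.95. With limma on the deposited FPKM (fragments per length and library size) 530 of 11813 genes averaging at least 0.5 FPKM were called higher and 482 lower. In edgeR, which tested 13773 genes, 498 were called higher and 776 lower. Gene set and scaling thus differed, with median log2 fold changes of 0.052 in limma and 0.0044 in edgeR. Without either WT library edgeR called no gene at all, with 3442 genes at an unadjusted p under 0.05 without WT replicate 1 and 2587 without WT replicate 2, where DESeq2 called 540 and 416.

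Because FPKM is per length, it allows levels to be compared between genes. Phlda2, Grb10 and Igf2r were the abundant members, at averages of 47.6, 44.8 and 30.8 FPKM over the 4 libraries, above 91.8%, 91.2% and 87.1% of all listed genes. Asb4, Cdkn1c and Zim1 averaged 3.55, 3.52 and 1.72 FPKM. Ppp1r9a, at 0.137 FPKM, lay above 22.3% of listed genes. Over the 4 libraries the FPKM values of Phlda2 and Grb10 overlapped, and their order differed between the groups, with Grb10 above Phlda2 in both KO libraries and below it in both WT libraries. Those of Asb4 and Cdkn1c overlapped likewise, with Asb4 above Cdkn1c in both KO libraries and below it in both WT libraries. Every other pair of neighbours in the order was separated, in the same direction in both groups.

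**Figure D1:**
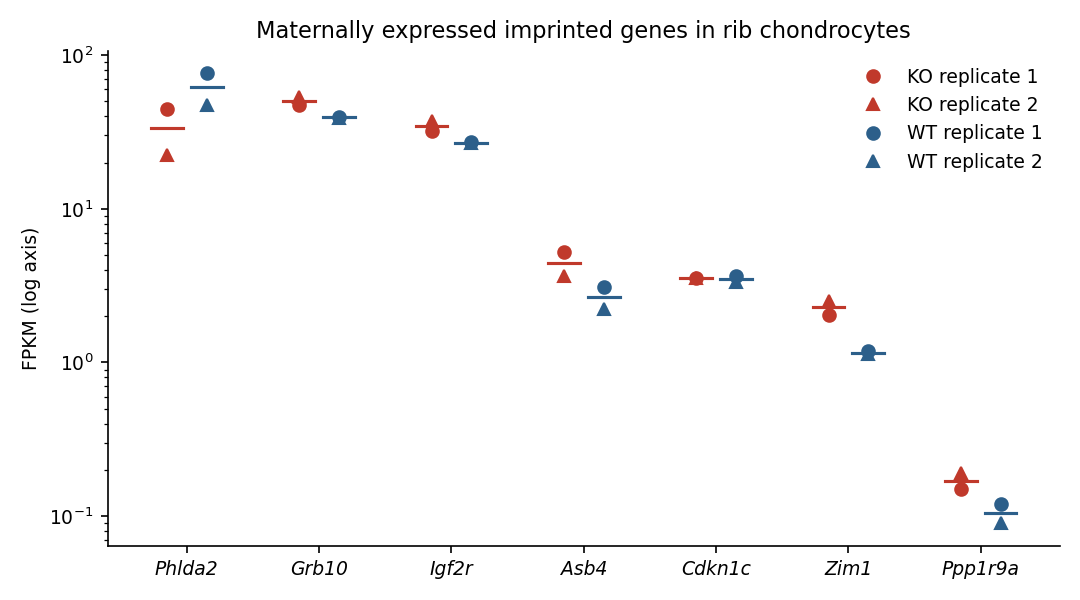
FPKM of the 7 genes in each library, on a log axis, with the KO libraries left of the WT libraries and a bar at each group's mean (n = 2 each). Phlda2, Grb10 and Igf2r lie between 22.4 and 76.2 FPKM, the other genes lie at or below 5.21 FPKM, and Phlda2 varies most between libraries of a group.

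Zim1 encodes a zinc finger protein and lies beside Peg3 on chromosome 7. It measured 2.04 and 2.53 FPKM in KO replicates 1 and 2, from 234 and 289 counts, against 1.18 and 1.13 FPKM in WT replicates 1 and 2, from 132 and 125 counts. Both KO libraries stood well above both WT libraries, and the WT libraries were close to each other. In CPM the means were 8.004 ± 1.2 in KO and 4.14 ± 0.042 in WT (SD, n = 2 each), a log2 fold change of 0.95 with SE 0.17 (95% interval 0.54 to 1.35, edgeR adjusted p = 0.0234). That fold change was higher than those of 98.3% of tested genes. Without WT replicate 1 or WT replicate 2 the edgeR adjusted p was 0.137 or 0.22, with log2 fold changes of 0.96 and 0.94, and DESeq2 without any single library gave 0.0663 to 0.304.

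Grb10 and Igf2r both act on growth factor signalling at the cell surface. Grb10 is an adaptor that binds the activated insulin and IGF1 receptors and dampens their signal. It measured 47.1 and 53.5 FPKM in KO replicates 1 and 2, from 7774 and 8850 counts, against 39.7 and 38.9 FPKM in WT replicates 1 and 2, from 6360 and 6203 counts. The groups did not overlap, and KO replicate 2 was the highest library. Mean CPM was 254 ± 24 in KO and 203 ± 2.2 in WT (SD, n = 2 each), which gave a log2 fold change of 0.33 with SE 0.087 (95% interval 0.12 to 0.54, edgeR adjusted p = 0.066).

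Igf2r is the cation-independent mannose 6-phosphate receptor, which carries lysosomal enzymes to lysosomes and takes up and clears the growth factor IGF2. It measured 32.1 and 37.2 FPKM in KO replicates 1 and 2, from 9380 and 10837 counts, against 27.2 and 26.7 FPKM in WT replicates 1 and 2, from 7774 and 7517 counts. Again KO replicate 2 was highest and the groups did not overlap. Mean CPM was 309 ± 33 in KO and 247 ± 1.1 in WT (SD, n = 2 each), which gave a log2 fold change of 0.33 with SE 0.091 (95% interval 0.109 to 0.545, edgeR adjusted p = 0.0724). Airn, the paternally expressed RNA that starts within Igf2r on the opposite strand, had no entry in any library and was not analysed here. No source used here states whether counting was by strand, and without strand the reads of Airn and Igf2r in shared sequence cannot be told apart.

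Grb10 and Igf2r, on chromosomes 11 and 17, had nearly the same pattern across libraries. Among 9644 other genes averaging at least 5 CPM, Igf2r was the closest to Grb10 by the root-mean-square difference of centred log2 CPM over the 4 libraries (0.0088), followed by Fut10 (0.015). Igf2r in turn had Grb10 (0.0088) and Fut10 (0.011) closest. With 4 libraries many genes share such a pattern, and 826 genes lay within 0.1 of Grb10 and 733 within 0.1 of Igf2r. The closest genes to Zim1 were Smad6 (0.024) and Fgfr2 (0.026), with 18 genes within 0.1.

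Cdkn1c encodes p57, an inhibitor of cyclin-dependent kinases that holds back entry into the cell cycle and is needed in growth plate chondrocytes of mice as they leave the cycle. It measured 3.53 and 3.57 FPKM in KO replicates 1 and 2, from 219 and 220 counts, against 3.65 and 3.32 FPKM in WT replicates 1 and 2, from 223 and 197 counts. The KO values lay between the WT values. Mean CPM was 6.72 ± 0.048 in KO and 6.77 ± 0.4 in WT (SD, n = 2 each), and the 95% interval of the log2 fold change ran from -0.345 to 0.323 (edgeR adjusted p = 0.966). Skiv2l was closest to it (0.0046), among 3453 genes within 0.1. In the basic transcript set of GENCODE M21 Cdkn1c is the one gene of the 7 whose annotated exons overlap those of another gene, the antisense Gm44732.

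Phlda2 encodes a small pleckstrin homology domain protein that restrains growth of the placenta. It measured 44.5 and 22.4 FPKM in KO replicates 1 and 2, from 1024 and 513 counts, against 76.2 and 47.5 FPKM in WT replicates 1 and 2, from 1714 and 1052 counts. The highest KO library came close to the lowest WT library, and within each group the libraries differed widely. Mean CPM was 23.5 ± 11 in KO and 44.4 ± 14 in WT (SD, n = 2 each), which gave a log2 fold change of -0.92 with SE 0.33 (95% interval -1.72 to -0.12, edgeR adjusted p = 0.13). Leaving out single libraries moved the edgeR log2 fold change between -1.50 without KO replicate 1, where its adjusted p was 0.00237, and -0.50 without KO replicate 2. It was -0.56 without WT replicate 1 and -1.20 without WT replicate 2. No gene averaging at least 5 CPM lay within 0.1 of its pattern, and the closest were Hspb1 and Shisa4 at 0.19 each. Hspb1 encodes a small heat shock protein.

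Asb4 encodes a substrate-binding subunit of a cullin 5 ubiquitin ligase and is known from the embryonic vasculature. It measured 5.21 and 3.67 FPKM in KO replicates 1 and 2, from 556 and 390 counts, against 3.09 and 2.22 FPKM in WT replicates 1 and 2, from 322 and 228 counts. The groups did not overlap, but the lower KO library was close to the higher WT library. Mean CPM was 14.5 ± 3.5 in KO and 8.84 ± 1.9 in WT (SD, n = 2 each), which gave a log2 fold change of 0.71 with SE 0.22 (95% interval 0.19 to 1.23, edgeR adjusted p = 0.093). It was 0.44 without KO replicate 1 and 0.95 without KO replicate 2, and in the second case the edgeR adjusted p was 0.0126. Endothelial markers lay on the other side, with all 7 tested at negative log2 fold changes, 3 of them called lower, and sums of 68.6 and 81.1 CPM in KO, against 104 and 112 CPM in WT. None of these markers was at 0, and their part in the Asb4 values was not tested. In bulk samples fewer cells of a type and less RNA per cell cannot be told apart. S100b (0.067) and Cyp2j6 (0.076) were closest in pattern to Asb4, with 9 genes within 0.1.

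Ppp1r9a encodes neurabin-I, which tethers protein phosphatase 1 to actin filaments, and is best known from neurons. It measured 0.15 and 0.19 FPKM in KO replicates 1 and 2, from 46.5 and 59.2 estimated counts, against 0.12 and 0.09 FPKM in WT replicates 1 and 2, from 37.8 and 27.2 estimated counts. The groups did not overlap, at a level where single reads weigh. Its estimated counts were not whole, which happens where a counter shares reads between sequences. The log2 fold change was 0.62 with SE 0.31 (95% interval -0.13 to 1.36, edgeR adjusted p = 0.239).

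**Figure D2:**
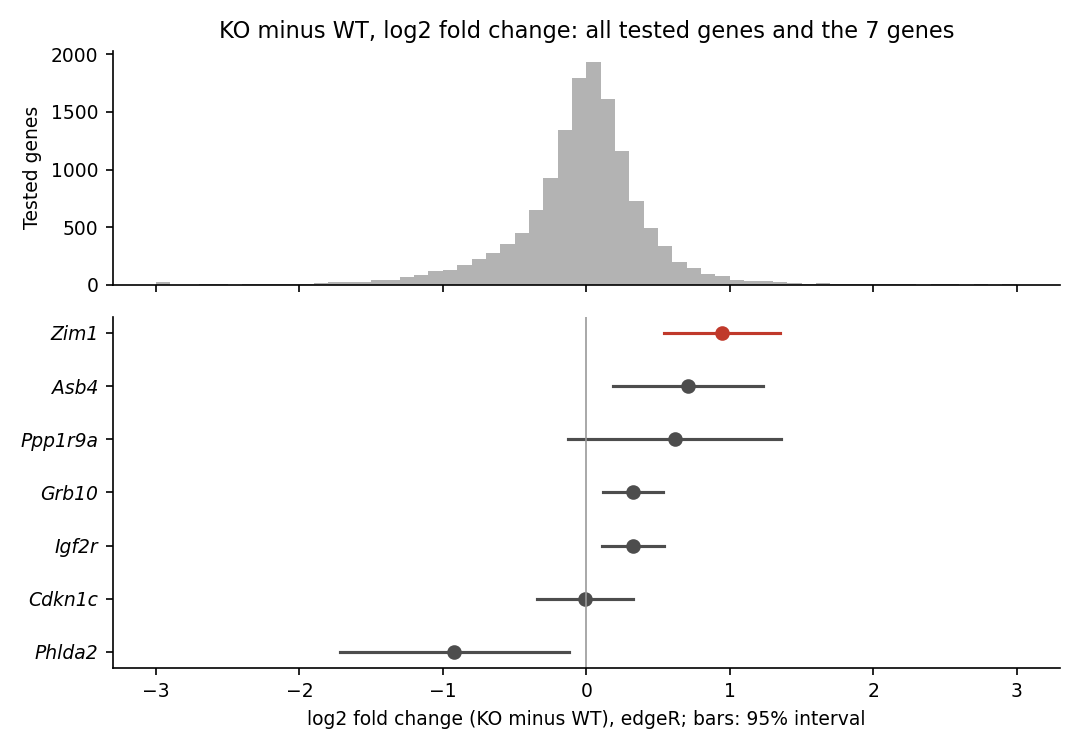
Top, log2 fold changes (KO minus WT) of all 13773 tested genes in bins of 0.1, with values beyond 3 set to 3. Bottom, the 7 genes with 95% intervals, which are not adjusted for the number of genes tested; Zim1, in red, is the gene with an edgeR adjusted p under 0.05.

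Counts and medians over the 7 genes describe them and are not a test, since the genes were chosen with earlier results known. Among them, 5 lay higher in both KO libraries and 1 lay lower in both, where 30.9% of tested genes lay higher and 30.7% lower in this sense (61.7% in all). The median log2 fold change of the 7 was 0.33, against 0.0044 over all tested genes. It was 0.325 with RLE and 0.339 with upper-quartile scaling of the counts. Leaving out KO replicate 1 gave 0.43 and leaving out KO replicate 2 gave 0.24. Grb10, Igf2r, Zim1 and Ppp1r9a were higher in KO replicate 2 than in KO replicate 1, and Asb4 and Phlda2 were lower. KO replicate 2 also stood apart in markers of skeletal muscle, a tissue that adjoins rib cartilage, whose 8 genes summed to 27.5 CPM there, against 7.72 CPM in KO replicate 1 and 10.4 and 10.6 CPM in the WT libraries. 7 of these 8 were tested, 1 of them, Tnnt3, was called higher in KO and none was at 0 in any library. Their part in the results was not tested. Without KO replicate 2 the log2 fold change of Zim1 was 0.79, with an adjusted p of 0.0441 in edgeR and 0.304 in DESeq2.

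**Figure D3:**
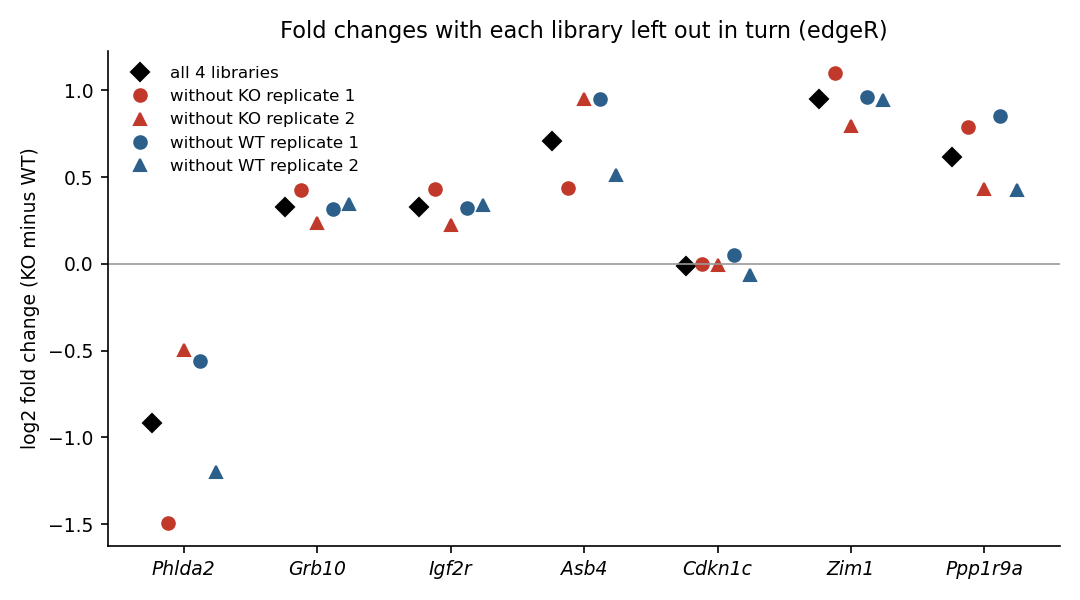
Log2 fold change (KO minus WT, edgeR) of each gene with all 4 libraries and with each library left out in turn. The sign was kept in every case except for Cdkn1c, which lies between -0.065 and 0.052, and the widest spread is that of Phlda2, from -1.50 to -0.50.

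Imprinted genes lie in clusters that share a control region, so the neighbours of each gene on its chromosome were read beside it. In the Zim1 neighbourhood the paternally expressed genes Peg3 and Usp29 were higher too. Peg3, a zinc finger gene of growth control, rose, with 344 and 340 CPM in KO libraries, against 141 and 182 CPM in WT libraries (log2 fold change 1.08 with SE 0.12, edgeR adjusted p = 0.00757). Usp29 measured 1.28 and 1.44 CPM in KO, against 0.917 and 0.527 CPM in WT, and did not pass (log2 fold change 0.91 with SE 0.37, edgeR adjusted p = 0.162). Zfp954, the other tested gene nearby, measured 12.33 and 12.61 CPM in KO, against 12.93 and 14.02 CPM in WT (log2 fold change -0.11 with SE 0.11, edgeR adjusted p = 0.544).

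Around Ppp1r9a and Asb4 on chromosome 6, 1 of 9 tested genes was called. This was the paternally expressed, retrotransposon-derived Peg10, with 46.0 and 45.8 CPM in KO libraries, against 27.3 and 30.4 CPM in WT libraries (log2 fold change 0.67 with SE 0.085, edgeR adjusted p = 0.0096). Sgce, its paternally expressed neighbour that encodes epsilon-sarcoglycan, had a log2 fold change of 0.37 with SE 0.14 (edgeR adjusted p = 0.135) and Pon3 one of 0.52 (SE 0.15, edgeR adjusted p = 0.0761). On the far side of Asb4, Pdk4 and Dync1i1 had values of the opposite sign, at -0.69 (SE 0.23, edgeR adjusted p = 0.111) and -0.97 (SE 0.25, edgeR adjusted p = 0.0637).

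None of the 13 tested genes of the Cdkn1c and Phlda2 neighbourhood on distal chromosome 7 passed in edgeR, with 4 at an unadjusted p under 0.05 and 1, Igf2, called by DESeq2. Nap1l4, next to Phlda2, measured 123 and 121 CPM in KO libraries, against 117 and 115 CPM in WT libraries. Ascl2, a transcription factor gene of the placental lineage, measured 1.56 and 1.78 CPM in KO, against 0.791 and 1.02 CPM in WT (log2 fold change 0.88 with SE 0.30, edgeR adjusted p = 0.114). Igf2, the paternally expressed ligand that Igf2r clears, measured 1353 and 1730 CPM in KO, against 1109 and 1251 CPM in WT (log2 fold change 0.39 with SE 0.13, edgeR adjusted p = 0.115). Kcnq1ot1, the paternally expressed RNA of this cluster, had no entry in any library and was not analysed here.

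Of the 3 tested neighbours of Grb10 within 5 annotated genes on either side on chromosome 11, Cobl and Fignl1 rose. Cobl, an actin nucleator gene, measured 54.0 ± 2.7 CPM in KO and 40.2 ± 0.89 CPM in WT (SD, n = 2 each; log2 fold change 0.43 with SE 0.077, edgeR adjusted p = 0.0237). Fignl1, of the AAA ATPases, measured 7.12 ± 0.57 CPM in KO and 3.97 ± 0.11 CPM in WT (log2 fold change 0.84 with SE 0.16, edgeR adjusted p = 0.0253). Ikzf1, a transcription factor gene of blood cells, measured 1.19 and 1.23 CPM in KO, against 2.12 and 2.14 CPM in WT, and did not pass (log2 fold change -0.81 with SE 0.24, edgeR adjusted p = 0.0881). Ddc was too low to be tested, at 0.0915 and 0.276 CPM in KO and 0.0949 and 0.0658 CPM in WT. Beside Igf2r on chromosome 17, the placental transporter gene Slc22a3 measured 0.122 and 0.245 CPM in KO and 0.411 and 0.362 CPM in WT, and did not pass. Nor did Mas1, or the mitochondrial ribosome gene Mrpl18, which measured 32.8 and 31.9 CPM in KO, against 26.3 and 26.4 CPM in WT (edgeR adjusted p = 0.0672).

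**Figure D4:**
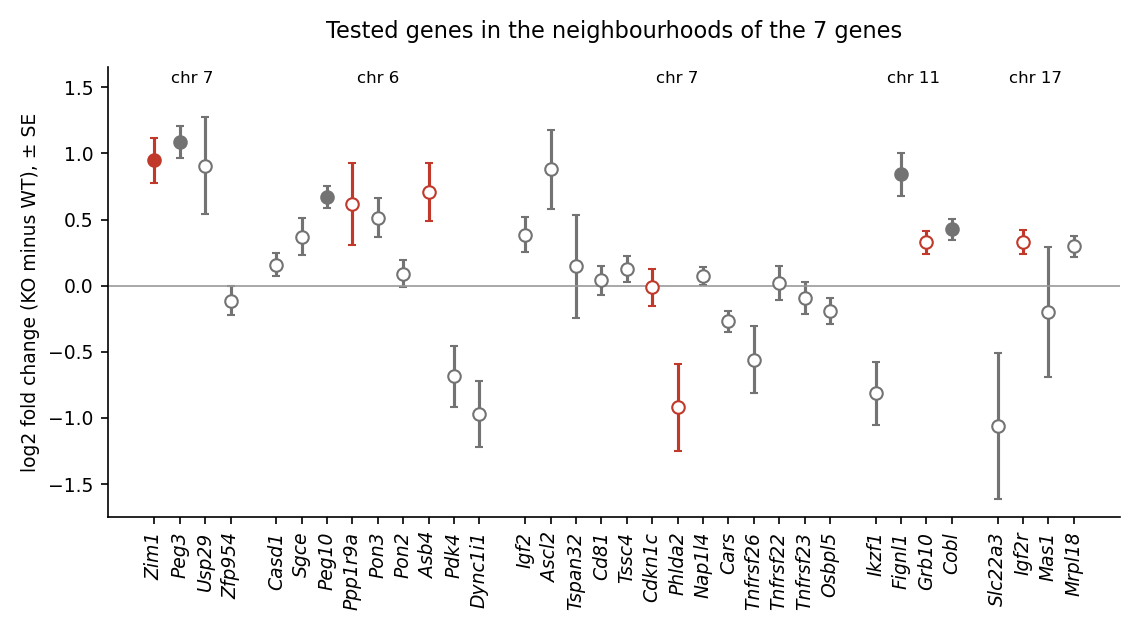
Log2 fold changes (KO minus WT) with SE of the tested genes around the 7 genes (in red), in chromosomal order within each neighbourhood. Filled points passed an edgeR adjusted p of 0.05: Zim1, Peg3, Peg10, Fignl1 and Cobl.

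Of 20 further maternally expressed imprinted genes that were tested, some of them imprinted in placenta or brain alone, 1 rose and 1 fell. H19, Meg3, Rian, Mirg and Th, also maternally expressed, had no entry in any library and are not among the 20. A missing entry does not tell a count of 0 from a gene left out of the annotation. Copg2, a coat protein gene, rose to 29.5 ± 1.4 CPM in KO, against 22.1 ± 0.013 CPM in WT (SD, n = 2 each; edgeR adjusted p = 0.0358). Ampd3, an AMP deaminase gene, fell to 34.9 ± 12 CPM in KO, against 67.5 ± 4.1 CPM in WT (edgeR adjusted p = 0.0429). Over these 20 genes the log2 fold changes had a median of 0.11. Of 21 tested paternally expressed genes 6 rose and 1 fell, with a median of 0.37. The 6 were Peg3, Mest, Peg10, Plagl1, Dlk1 and Ndn. Mest, a hydrolase-fold gene, rose 2.09-fold, the Notch-related ligand gene Dlk1 1.63-fold, the zinc finger gene Plagl1 1.40-fold and Ndn 1.29-fold, with edgeR adjusted p-values of 0.00909, 0.0171, 0.0166 and 0.0367. The Ras exchange factor gene Rasgrf1 fell to 0.566 ± 0.024 CPM in KO, against 1.79 ± 0.2 CPM in WT (edgeR adjusted p = 0.0256). Over the 10 tested genes listed as neighbours that are not imprinted or uncertain, 2 rose, Cobl and Fignl1, 0 fell and the median was -0.057. Whether the maternally and the paternally expressed genes differ in their response was not tested.

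Among 14 insulin and IGF receptor partners of Grb10, 3 rose and 0 fell in edgeR, with a median log2 fold change of -0.0078 that was of either sign across the alternatives, at 0.0025 with upper-quartile scaling for one. Irs1, the adaptor that carries the signal of the receptors, rose 3.22-fold, to 91.3 and 94.5 CPM in KO libraries, against 31.1 and 26.6 CPM in WT libraries (edgeR adjusted p = 0.00139). Grb14, the closest relative of Grb10 in this list and likewise a receptor-binding adaptor, rose 1.73-fold, and Nedd4, a ubiquitin ligase that Grb10 binds, 1.39-fold. The receptor genes Insr and Igf1r did not pass, with log2 fold changes of -0.025 (SE 0.15) and -0.16 (SE 0.081).

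Of 21 genes of mannose 6-phosphate sorting beside Igf2r 3 rose and 0 fell, with a median of 0.13. Vps29, a retromer subunit gene, rose 1.34-fold, and the lysosomal protease gene Ctsb 1.44-fold. M6pr, the other mannose 6-phosphate receptor gene, measured 229 and 244 CPM in KO, against 227 and 227 CPM in WT, and did not pass.

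Of 15 tested CDK inhibitors, cyclins and kinases beside Cdkn1c 2 rose and 2 fell, with a median of 0.0995. The kinase gene Cdk4 rose 1.40-fold and the cyclin gene Ccne1 1.54-fold. Among the D cyclin genes, Ccnd2 fell to 161 ± 3.6 CPM in KO, against 304 ± 27 CPM in WT, and Ccnd1 fell to 113 ± 6.0 CPM in KO, against 164 ± 12 CPM in WT (SD, n = 2 each; edgeR adjusted p = 0.0038 and 0.0164). Of the inhibitors closest to Cdkn1c, Cdkn1a had a log2 fold change of -0.59 with SE 0.16 (edgeR adjusted p = 0.0656) and Cdkn1b one of 0.25 (SE 0.15, edgeR adjusted p = 0.32).

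Of 5 tested genes listed beside Phlda2, 1 rose and 1 fell, with a median of -0.185, 2 positive values and 3 negative ones. The gene that rose was Phldb2, while Phlda1 and Phlda3 had negative log2 fold changes, as Phlda2 did. Phlda1, which also carries a pleckstrin homology domain, fell to 162 and 208 CPM in KO libraries, against 327 and 296 CPM in WT libraries (log2 fold change -0.75 with SE 0.13, edgeR adjusted p = 0.0208). Phlda3 did not pass (log2 fold change -0.19, SE 0.14), and Phldb2, a larger protein of the cell cortex, rose 1.72-fold.

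Of 13 tested genes of the ASB family and the cullin 5 ligase 3 rose and 0 fell, with a median of 0.20. Asb8 rose 1.52-fold and the ligase subunit genes Elob and Rnf7 1.28-fold and 1.30-fold, while Cul5 itself measured 80.1 and 77.4 CPM in KO, against 79.3 and 84.7 CPM in WT. Of 12 phosphatase 1 and actin partners of Ppp1r9a none passed in edgeR, with 3 at an unadjusted p under 0.05 and 0 called by DESeq2, and their median was -0.016. Its relative Ppp1r9b, which encodes spinophilin, measured 81.9 and 82.9 CPM in KO and 73.9 and 63.9 CPM in WT (edgeR adjusted p = 0.117). Of 19 tested genes of imprint maintenance, DNA methylation and Polycomb repressive complex 2, 0 rose and 1 fell, with a median of 0.0585. Tet3, which oxidises methylcytosine, fell to 29.8 ± 4.4 CPM in KO, against 48.7 ± 2.4 CPM in WT (SD, n = 2 each; edgeR adjusted p = 0.0174). Zfp57 measured 14.2 and 12.9 CPM in KO and 12.3 and 14.6 CPM in WT, and Ezh2, the methyltransferase of Polycomb repressive complex 2, had a log2 fold change of 0.44 with SE 0.11 (edgeR adjusted p = 0.0514).

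Markers of other cells differed between the groups beside these results. Macrophage markers summed to 83.7 and 99.4 CPM in KO and 158 and 162 CPM in WT, with 1 of 7 tested called lower and C1qa at 0 in WT replicate 1. Erythroid markers summed to 10.7 and 12.2 CPM in KO and 22.7 and 27.9 CPM in WT, with 3 of 5 lower. Fibroblast and perichondrium markers summed to 634 and 885 CPM in KO and 1046 and 1477 CPM in WT, with 2 of 7 lower. Osteoblast markers summed to 4.09 and 6.02 CPM in KO and to 10.0 and 10.1 CPM in WT, with 1 of 7 lower and Bglap2 at 0 in KO replicate 1. Adipocyte markers summed to 47.3 and 51.6 CPM in KO and 63.7 and 68.5 CPM in WT, with 1 of 3 lower. Smooth muscle markers summed to 180 and 181 CPM in KO and 57.2 and 70.3 CPM in WT, with 2 of 4 called higher. Schwann cell markers summed to 122 and 171 CPM in KO and 88.6 and 101 CPM in WT. Of these 6 genes, 1, S100b, was called higher and 1, Mbp, lower, with 3 log2 fold changes positive and 3 negative. The part of all these markers in the levels of the 7 genes was not tested.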

How the data were processed

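Sample titles gave the groups of the 4 RNA-seq libraries, made from rib chondrocytes after plating. The tool Bowtie2 2.2.5 and the build mm9 are named, per the submitters' processing notes; no source used here names the counting tool, the annotation or a use of strand. What the authors deposited is, per the file headers, each library's expected count and FPKM by gene, and a DESeq2 comparison holding a mean signal by group, a log2 fold change, p-values and adjusted p-values. Genes absent from a library's table were set to 0 in it. Gene tables from RefSeq and GENCODE M21 are of another build than mm9 and gave names, neighbours, exon overlaps and promoter sequences only.

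Expected counts were rounded. The main test was the quasi-likelihood F test of edgeR 4.0.16 (R 4.3.3; TMM scaling, filterByExpr) of KO against WT over all 4 libraries, with Benjamini-Hochberg adjustment over the 13773 tested genes and a threshold of 0.05. Each SE is the size of the fold change on the log2 scale divided by the square root of F. On simulated counts of this comparison over 13614 genes, 83 of 100 genes with a log2 fold change of 1 in size were called, 45 of 100 with one of 0.585, and 11 of 13414 unchanged ones. In the simulation every gene had the same biological coefficient of variation, 10.3%. Real genes differ in it, so these rates need not hold for them. DESeq2 1.42.0 and limma 3.58.1 on log2 FPKM were alternatives, beside other scalings and filters, a replicate block and leaving out each library. Depth was 31178248 to 32332044 counts, and the biological coefficient of variation estimated between libraries was 10.3%.

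The genes and gene lists were chosen with earlier results of these data known. Named are the 7 genes, Kdm6a, Kdm6b, each list's called genes (the 6 with the smallest p-values where there were more), set imprinted neighbours, and the 2 genes closest in pattern to each of the 7 averaging at least 5 CPM (centred log2 CPM, prior count 2). Ndn, and genes named without a call outside these groups, were chosen after their values were seen. Elob and Eloc were found through older symbols. A few genes that this rule names are not reported here.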

Additional observations from a re-analysis of the deposited data

How the results depend on the processing

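The signs of Zim1, Grb10, Igf2r, Asb4, Phlda2 and Ppp1r9a were kept in every alternative that gave a value. That of Cdkn1c turned, at 0.027 and 0.022 with limma on log2(FPKM + 0.1) and log2(FPKM + 1), 0.027 without a filter there, and 0.052 and 0.055 without WT replicate 1 in edgeR and DESeq2. Adjusted p-values over all alternatives ran from 0.0028 to 0.304 for Zim1, 0.0177 to 0.447 for Grb10, 0.021 to 0.479 for Igf2r, 0.00748 to 0.751 for Asb4 and 0.000382 to 0.938 for Phlda2. Ppp1r9a had no test in 5 of 18 alternatives.

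DESeq2 called 4 of the 7 genes higher, and 2 of the further maternally expressed genes higher. Upper-quartile scaling left 0 of those further genes lower. With no filter on low counts edgeR called 265 genes higher and 455 lower, and 0 of the further maternally expressed genes in either direction. On genes averaging at least 5 CPM 0 paternally expressed genes fell. Rasgrf1, the one called lower in the main test, averaged below that filter and below the limma filter of 0.5 FPKM. It was therefore not tested in those settings. With limma on FPKM 482 genes fell with a pseudocount of 0.1 and 490 with 1, 0 of the further maternally and 0 of the paternally expressed genes fell, and with 0.1 there were 3 falls in the context lists. Without a filter limma called 0 genes, Kdm6a, Kdm6b and all listed genes included, with 4055 genes at an unadjusted p under 0.05.

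The sample titles give a replicate number only, and do not say whether same-numbered KO and WT libraries belong together. Deviations of same-numbered libraries from their group means correlated at 0.107 across genes. With 2 libraries per group this value cannot tell whether they were paired. With the number as a replicate block edgeR called 949 genes higher and 1367 lower, 4 of the 7 genes higher and 1, Phlda2, lower, 2 further maternally expressed genes higher and 10 context genes lower.

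Leaving out 1 library at a time, edgeR called 0 to 450 genes higher and 0 to 825 lower, 0 to 3 of the 7 genes higher and 0 to 1 lower, 0 to 2 of Kdm6a and Kdm6b, 0 to 1 further maternally expressed genes in each direction, 0 to 6 paternally expressed genes higher and 0 to 1 lower, and 0 to 16 context genes higher and 0 to 9 lower, against 21 and 6 with all libraries. DESeq2 without KO replicate 1, KO replicate 2, WT replicate 1 and WT replicate 2 in turn, added after seeing the data, called 200, 224, 188 and 124 genes higher, 459, 569, 352 and 292 lower, and 12, 11, 11 and 9 context genes higher. Cdkn1c ran from -0.065 to 0.052 in edgeR.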
